A study of Mus musculus with 2 samples.

Results

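Besides the Fos and Jun genes, several other basic leucine zipper (bZIP) transcription factor genes carried peaks of Aiolos, the zinc finger protein of the Ikaros family encoded by Ikzf3, in mouse natural killer (NK) cells. This account covers 6 of them: Atf4, Atf7, Bach2, Maff, Nfe2l2 and Nfil3. They were chosen by the presence of a peak that the authors' list assigns to them, so having a peak is not a result and neither presence nor strength is tested. The list assigned 8 of its 1404 peaks to these genes, which make up 6 of the 1276 genes named in it. The data came from CUT&RUN, in which micrococcal nuclease coupled to protein A is brought to the antibody's target and releases the DNA around it. The cells were NK cells of mouse spleen, kept in culture with 50 ng/ml interleukin-15 until at least 500000 were at hand per sample. The labels give no genotype, strain or age. There were 2 libraries, 1 with the Aiolos antibody and 1 with no primary antibody, and nothing is replicated.

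All positions, fold enrichments and q-values of peaks are the authors' own values on the mm10 build. The fold enrichment compares the tags (aligned fragments) piled up at the summit with the local background. Whole tag numbers and backgrounds were recovered from each peak's fold and p-value. For each peak of the bZIP genes described here, and for most other genes, the fold is given with a 95% exact Poisson interval of its tags. The interval covers counting error only. It makes no allowance for peaks being listed, and summits placed, where tags were high. Over all 1404 peaks the summit held 4 to 63 tags with a median of 8, and the median fold was 6.44 (quartiles 5.08 and 8.05). Of 10 marker genes of NK cells 5 had an assigned peak (Klrb1c, Klrd1, Klre1, Gzmb and Il2rb), against 5.38% of all protein-coding genes. None was assigned to 5 T cell markers (Cd3e, Cd3g, Cd4, Cd8a and Trac) or 4 myeloid markers (Lyz2, Csf1r, Itgam and Cd68). These are too few genes for a count of 0 to differ from that share, and the T-lineage gene Cd5, outside these lists, had a peak. Only the assigned gene was counted, so a peak near a marker but assigned to a neighbouring gene would be missed. Peaks do not measure expression, so the purity of the cells was not tested.

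bZIP proteins bind DNA as dimers: a basic stretch contacts the DNA and a leucine zipper joins the partners, and the choice of partner sets the preferred sequence. ATF4 is made during the integrated stress response and drives amino acid metabolism genes, and ATF7 is an ATF2-like factor at cyclic AMP response elements (CRE) that stress kinases phosphorylate. NRF2, the product of Nfe2l2, drives antioxidant genes once it escapes its inhibitor KEAP1, and it needs a small MAF protein such as MAFF as its partner. BACH2 pairs with the same small MAF proteins but represses, and restrains effector differentiation of lymphocytes. NFIL3 (E4BP4) is required for NK cell development, and also occupies the sites of the clock output factors DBP, TEF and HLF.

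The promoter sequences at 5 of the peaks are printed below, and some run past the edge of the peak. RefSeq promoter windows of GRCm38.p6, the assembly of mm10, run from 250 bases before to 50 bases after a start, and all 6 genes matched at least 1 window. Of their 8 windows, 5 overlapped a member's peak. The stretches below run 5' to 3' on the gene's strand from the outer edge of the peak, or of the window, to the base before the start, so that bases past the RefSeq start are not shown. Capitals mark matches on either strand to GGGAA, the core letters bound by Ikaros family proteins, and to TGACGTCA, the CRE. Nfe2l2 (chr2:75704664-75704903, minus strand) has a pair of GGGAA matches near its summit, the first Maff start (chr15:79346371-79346620, plus strand) has no match, and the second (chr15:79347270-79347519, plus strand) has a CRE. Atf7 (chr15:102625465-102625714, minus strand) and Atf4 (chr15:80255111-80255183, plus strand) are the strongest promoter peaks, and their upstream sequence holds neither motif.
Nfe2l2: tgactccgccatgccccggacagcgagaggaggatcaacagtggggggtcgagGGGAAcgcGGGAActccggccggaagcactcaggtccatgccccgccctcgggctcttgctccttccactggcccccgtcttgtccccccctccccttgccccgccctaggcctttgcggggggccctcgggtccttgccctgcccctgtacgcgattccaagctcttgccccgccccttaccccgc
Maff first start: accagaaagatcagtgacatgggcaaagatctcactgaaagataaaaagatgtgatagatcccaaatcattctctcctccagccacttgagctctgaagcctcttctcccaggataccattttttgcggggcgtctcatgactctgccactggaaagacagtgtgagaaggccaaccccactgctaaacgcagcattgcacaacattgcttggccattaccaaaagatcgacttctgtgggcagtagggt
Maff second start: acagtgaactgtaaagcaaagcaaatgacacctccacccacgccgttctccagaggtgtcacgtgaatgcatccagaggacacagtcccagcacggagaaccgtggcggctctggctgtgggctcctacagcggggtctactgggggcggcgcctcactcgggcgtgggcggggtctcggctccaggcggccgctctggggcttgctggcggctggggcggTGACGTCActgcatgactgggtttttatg
Atf7: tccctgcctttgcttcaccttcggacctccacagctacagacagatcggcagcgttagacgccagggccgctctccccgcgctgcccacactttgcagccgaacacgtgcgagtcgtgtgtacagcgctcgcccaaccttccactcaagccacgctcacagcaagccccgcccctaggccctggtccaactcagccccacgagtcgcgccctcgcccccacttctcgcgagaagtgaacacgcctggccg
Atf4: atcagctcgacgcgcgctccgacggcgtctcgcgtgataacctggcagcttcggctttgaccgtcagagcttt

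In the Nfe2l2 stretch, 214 of the 240 bases lay inside the peak. The GGGAA matches began 187 and 179 bases before the RefSeq start, and the summit lay 208 bases before it. In the second Maff stretch the CRE began 29 bases before the start, within the last 65 bases, which the peak did not cover. Over the whole 300-base windows, GGGAA was found in 3 of the 5 windows with a peak, those of Nfe2l2, Atf7 and the second Maff start, against 62.7% of all 32851 windows of the table. In Atf7 and at the second Maff start the match lay 31 bases past the start. Such short letters are common, and 2 of the 3 member windows without a peak held them too. These lie at a Maff start (chr15:79348402) and a Bach2 start (chr4:32417435). The Bach2 peak distances below use other annotated starts, at chr4:32238804 and chr4:32239077. The CRE was found in 1 of the 5 windows and in 1.79% of all windows. The AP-1 element TGACTCA (5.20% of all windows), the NFIL3 element TTACGTAA (0.119%) and the antioxidant-type element TGC followed directly by TGAGTCA (0.155%), which contains the AP-1 letters, were found in 0 of the 5. A match describes letters in the window, not a bound site, and the summits of Atf7 and Atf4 lay past the RefSeq start and outside the printed stretches.

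Base composition differed widely among the windows. G and C made up 68.7% of the Nfe2l2 window, 65.0% of the Atf7 window, 61.3% at the second Maff start and 59.0% at Atf4, all above the median of 52.7% over all windows. The first Maff start had 50.3%, and its ratio of observed to expected CpG of 0.263 was under the median of 0.384, whereas Atf4 (0.844), Atf7 (0.812), the second Maff start (0.752) and Nfe2l2 (0.544) were above it. The Maff gene thus has a peak at a CpG-poor and at a CpG-rich start. The promoter window of Nfil3 had 81.7% G and C, more than all but 0.493% of windows, and carried no peak.

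Atf7 had the strongest peak of the 6 genes. It spanned chr15:102625198-102625783, 586 bp across the start of the annotated transcript ENSMUST00000184616.7, with its summit 183 bp downstream of that start. The antibody library had 17 tags at the summit over a background of 0.186 tags, the lowest value in the list, which gave a fold of 15.2 (95% counting interval 9.19 to 23.8) and a -log10 q of 23.7. Only 12 of the 1404 peaks had a higher fold, and 127 were wider.

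Atf4 came next, with a peak at chr15:80255111-80255464 that also crossed the start. Its summit lay 55 bp downstream of the start of ENSMUST00000109605.4. The summit held 10 tags over a background of 0.242 tags, a fold of 8.85 (4.66 to 15.6) and a -log10 q of 9.67. In fold it stood above 83.3% of all peaks. The nearest end of another protein-coding gene, that of Mief1, was 1.87 kb from the summit. The intervals of Atf7 and Atf4 overlapped.

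Nfe2l2 had a narrow peak of 214 bp at chr2:75704690-75704903, whose near edge lay 49 bp upstream of the start of ENSMUST00000102672.4. The summit was 230 bp upstream of this start, which differs slightly from the RefSeq start used for the sequence. It held 7 tags over the lowest background of 0.186, a fold of 6.75 (3.22 to 13.0) and a -log10 q of 6.10, close to the middle of the list: 54.8% of peaks were weaker. No other gene had a peak nearby, and the next one on the chromosome, assigned to Gpr155, was 2.32 Mb away.

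Maff had 2 peaks, one at each of a pair of starts 899 bp apart. The promoter window of a further RefSeq start of Maff, at chr15:79348402, overlapped no peak. The peak before the first start (ENSMUST00000229130.1), at chr15:79346361-79346587, had its summit 91 bp upstream, with 5 tags over 0.186, a fold of 5.06 (2.21 to 10.7) and a -log10 q of 3.29. The peak before the second start (ENSMUST00000096350.10), at chr15:79347039-79347454, had its summit 206 bp upstream, with 8 tags over 0.586 tags, a fold of 5.68 (2.81 to 10.6) and a -log10 q of 3.81. Its background equals 1 step of 0.586. The backgrounds of 386 peaks lie on whole multiples of this step, within 0.0002 tags for each step in the multiple. The step is read here, as an inference, as the value of 1 scaled tag of the library without antibody. The second peak had more tags but also more background, and the counting intervals of the pair overlapped. Whether their folds differ was not tested. Their facing edges were 451 bp apart. Genes with at least 2 peaks were 8.07% of those named in the list (103 of 1276), and Maff and Bach2 were the 2 such genes among the 6.

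**Figure D1:**
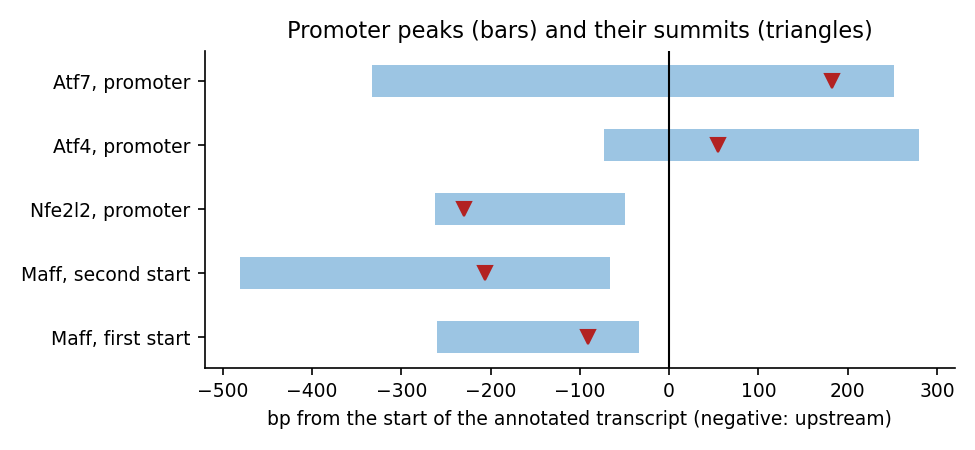
Position of the 5 promoter peaks of Atf7, Atf4, Nfe2l2 and Maff relative to the start of the annotated transcript, in bp, with negative values upstream. Bars span each peak and triangles mark summits: the peaks of Atf7 and Atf4 cross the start with summits 183 and 55 bp downstream, and the other 3 peaks lie wholly upstream with summits at -230, -206 and -91 bp.

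Bach2 and Nfil3 had no promoter peak. The stronger Bach2 peak, at chr4:32250492-32251458, lay in intron 1 of 6 of ENSMUST00000108180.8, with its edge 11.4 kb downstream of the start of another annotated transcript, ENSMUST00000149201.7. At 967 bp it was wider than all but 7 of the 1404 peaks. Its summit, 112 bp from one edge, held 15 tags, but over a background of 1.17 tags, the highest among the 8 peaks and equal to 2 such steps, so the fold was 7.37 (4.33 to 11.9) with a -log10 q of 8.09. Among the 8 it had fewer tags than Atf7 alone, but a lower fold than both Atf7 and Atf4.

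The other Bach2 peak, at chr4:32149304-32149534, was intergenic, with its edge 89.3 kb upstream of the start of ENSMUST00000108180.8 and 101 kb between the summits. It had 5 tags over 0.186 and a fold of 5.06 (2.21 to 10.7). The long noncoding RNA gene Gm52717 was nearer to its summit (7.47 kb) than Bach2 (88.9 kb), which was the nearest protein-coding gene. The next peak assigned to another gene was 1.10 Mb away at Pnrc1, so both Bach2 peaks stood alone on this stretch of the chromosome.

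The Nfil3 peak, at chr13:53057045-53057570 and 526 bp wide, was intergenic and lay 76.0 kb upstream of the start of ENSMUST00000071065.7. It too had 5 tags over 0.186, a fold of 5.06 (2.21 to 10.7) and a -log10 q of 3.29. Its assigned gene was not the nearest protein-coding one: the body of Ror2, a receptor tyrosine kinase gene, was 52.2 kb from the summit and that of Nfil3 74.3 kb, and a long noncoding RNA gene, Gm33424, was nearer still at 38.7 kb. For 7 of the 8 peaks the nearest protein-coding gene was the assigned one, and for 6 it was the nearest gene of any type.

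**Figure D2:**
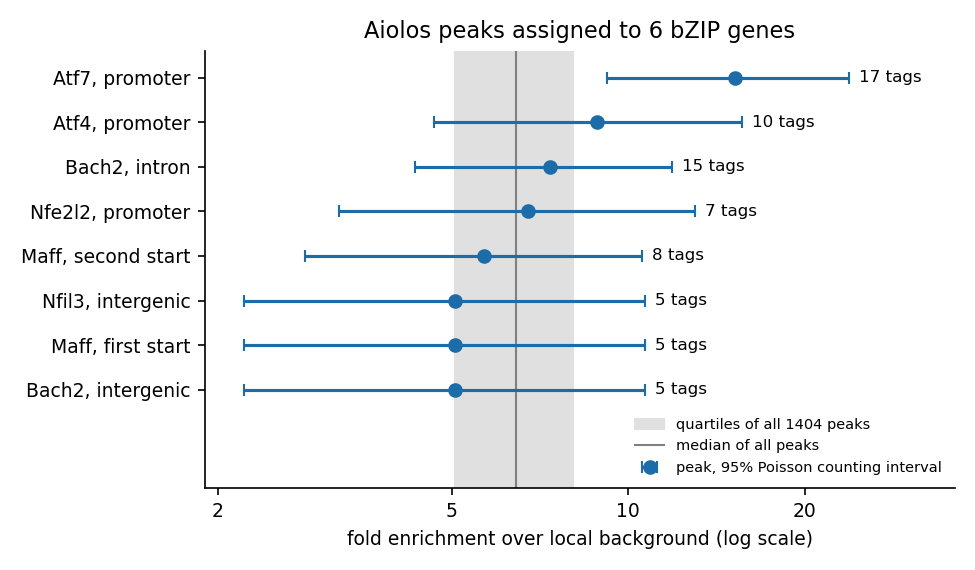
Fold enrichment of the 8 peaks on a log axis, with 95% exact Poisson counting intervals, the tags at each summit, and the median (6.44) and quartiles of all 1404 peaks as a line and a band. Atf7 at 15.2-fold lies beyond the band, as Atf4 does at 8.85-fold, and 3 peaks share the value of 5.06.

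In strength the 8 peaks spread over the list rather than to one side of it. Their median fold was 6.21 against 6.44 for all peaks, and 4 of the 8 were above the list's median. The peaks of Nfil3, the first Maff start and intergenic Bach2 had identical values, since each had 5 tags over the lowest background, as did 74 peaks of the list in all. The lowest -log10 q of a member was 3.29, and the list itself reached down to 1.31. By tags the weakest members were near the low end: they had 5, the fewest in the list were 4, and 18.3% of peaks had a lower fold. Peaks just outside the threshold were not analysed here. Of the 8 peaks, 5 had the lowest background of 0.186 tags, against 365 of the 1404 (26.0%). The narrowest peak (Nfe2l2) measured 214 bp, the widest (Bach2) 967 bp and the median 385 bp, against 265.5 bp for all peaks. With backgrounds and tags this low, the interval of Atf7 overlapped those of the other 7 peaks. Overlap of intervals is not a test of a difference, and the order of the genes by fold was not tested.

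Promoter peaks, those centred no more than 1000 bp from the start, made up 5 of the 8 (62.5%) and 910 of all 1404 (64.8%). These 5 had folds of 5.06 to 15.2 with a median of 6.75, against 6.60 for all promoter peaks. The 3 others had folds of 5.06, 5.06 and 7.37, against a median of 5.90 for the 494 peaks away from promoters. Chromosome 15 held 4 of the 8 peaks, those of Maff, Atf4 and Atf7, and 58 of all peaks (4.13%). All 4 are promoter peaks, so their chromosome was fixed by the choice of these genes. Peaks assigned to other genes, among them Gtpbp1 and Tab1, lay between those of Maff and Atf4.

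**Figure D3:**
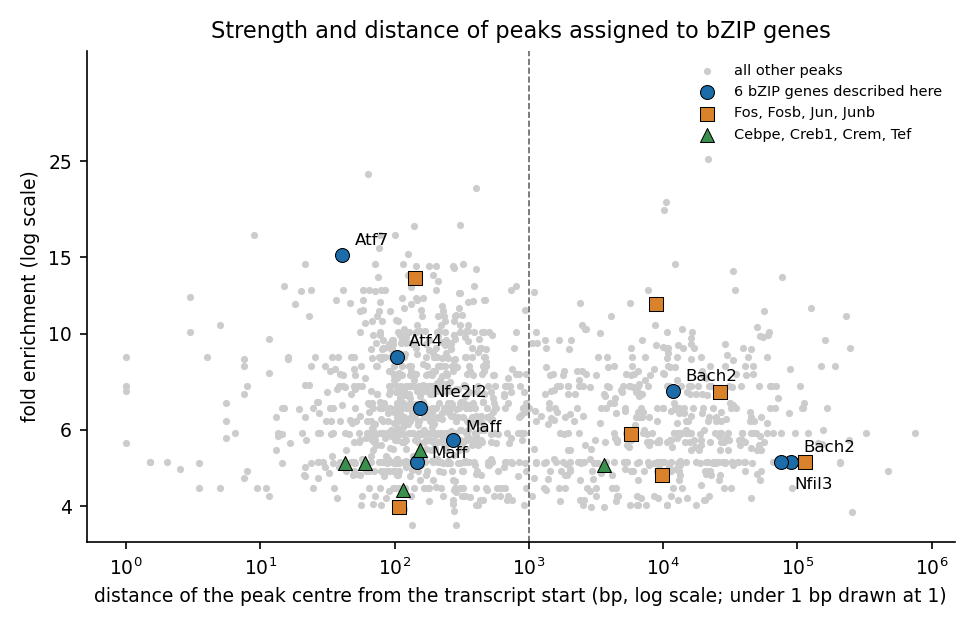
Fold enrichment against the distance of the peak centre from the annotated start, both on log axes, for all 1404 peaks, with the dashed line at 1000 bp. The 6 genes (circles) have 5 peaks left of the line and 3 right of it, the Fos and Jun genes (squares) 2 and 5, and Cebpe, Creb1, Crem and Tef (triangles) 4 and 1.

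The 6 genes are not all the bZIP genes with a peak outside the Fos and Jun genes. In a list of 53 bZIP genes 14 had an assigned peak (26.4%), against 5.38% of 21896 protein-coding genes in the RefSeq table. With peaks at promoters alone it was 9 of the 53 (17.0%), against 3.79% of protein-coding genes. Since these 6 genes were taken because they have a peak, the share of the family is a description. Besides them and Fos, Fosb, Jun and Junb, the 14 included Creb1, Crem, Tef and Cebpe. Creb1, which encodes the CRE-binding protein CREB, had a promoter peak of 5.05-fold (2.41 to 9.73). Crem, which encodes its relative, had 2 promoter peaks of 5.05-fold and 4.35-fold. Tef, a PAR bZIP activator of clock output, had a promoter peak of 5.38-fold (3.26 to 8.44) with 17 tags over a background of 2.34 tags. Cebpe, a granulocyte factor, had an intergenic peak of 4.97-fold 3.49 kb upstream. All 5 of these peaks were below the list's median fold, and 1 of them, that of Tef, was above its median -log10 q; the difference from the 6 genes was not tested. For comparison, the 7 peaks of Fos, Fosb, Jun and Junb had folds of 3.98 to 13.5 and a median of 5.86.

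By subfamily, the 6 genes belong to 6 different groups. Of their 12 relatives in these groups 1 had an assigned peak (8.33%), a share near the 5.38% of all protein-coding genes, so the lack of peaks among relatives is not a result about the members. Among the small MAF genes Maff had a peak and Mafg and Mafk had none. Nfe2l2 had a peak and Nfe2, Nfe2l1 and Nfe2l3 had none, Bach2 had one and Bach1 had none, Atf4 had one and Atf5 had none, and Atf7 had one and Atf2 and Creb5 had none. Beside Nfil3, Tef had a peak and Dbp and Hlf had none. In all, 10 of 16 subfamilies had a gene with a peak. The 6 without were ATF3 and JDP2, BATF, the large MAF genes, CREB3, ATF6 and XBP1, and CREBL2 and CREBZF. No assigned peak means only that none was called at this depth.

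**Figure D4:**
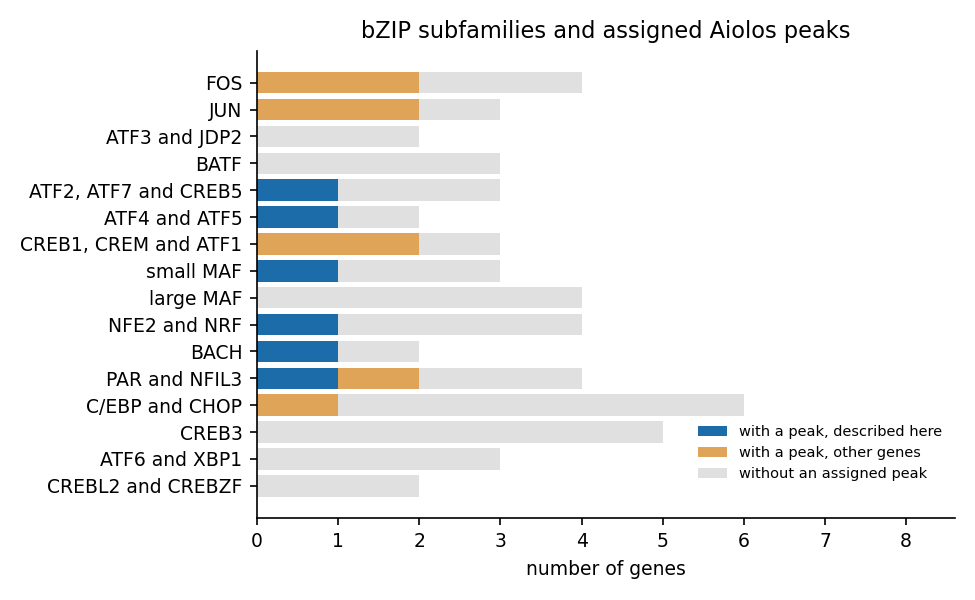
Number of genes in each of 16 bZIP subfamilies, split into the 6 genes described here (blue), other genes with an assigned peak (orange) and genes without one (grey). The 6 genes fall in 6 subfamilies, and in 6 subfamilies no gene had an assigned peak.

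In the lists of pathway genes around the members, the share with a peak ran from 5.26% to 27.8%, against 5.38% of all protein-coding genes. Of 32 genes of the integrated stress response around ATF4, 4 had a peak (12.5%). Eif2ak3, which encodes the stress kinase PERK, had an intergenic peak of 8.20-fold (4.54 to 13.8) 19.4 kb upstream. Promoter peaks belonged to Mthfd2, an enzyme of mitochondrial folate metabolism (5.90-fold, 2.70 to 11.9), Ddit4, an inhibitor of mTORC1 signalling (5.69-fold, 2.60 to 11.4), and Ppp1r15b, a subunit that guides the phosphatase of eIF2alpha (5.44-fold, 3.14 to 8.88). The other 28, among them Ddit3, Asns, Trib3 and Ppp1r15a, had none.

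Of 30 genes of the NRF2 and small MAF pathway, 3 had a peak (10%), all at promoters, against 5.38% of all protein-coding genes with any peak and 3.79% with a promoter peak. These were Cul3 (7.59-fold, 3.76 to 14.1) and Rbx1 (6.31-fold, 3.23 to 11.4), which encode parts of the ubiquitin ligase that KEAP1 recruits to NRF2, and Taldo1, an enzyme of the pentose phosphate pathway (5.80-fold, 2.65 to 11.7). Keap1 itself and the classical targets Hmox1, Nqo1, Gclc and Gclm had none. Of 22 kinases and partners of ATF2, ATF7 and CREB, 2 had a peak (9.09%), and both were bZIP genes, Creb1 and Crem. Of 19 partners and targets of BACH2 in lymphocytes, 1 had a peak (5.26%, near the share of all protein-coding genes), the cell cycle inhibitor gene Cdkn1a, at 6.60-fold (3.27 to 12.3) in an intron.

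Of 18 PAR bZIP and clock genes around NFIL3, 5 had a peak (27.8%, against 5.38% of all protein-coding genes). The nuclear receptor gene Rora had an intronic peak of 9.66-fold (5.22 to 16.6), with its edge 161 kb upstream of the annotated start used. The period gene Per1 had 4 promoter peaks, of which 2 shared the highest fold of 8.05 (4.12 to 14.6). Nr1d1, which encodes the clock repressor REV-ERBalpha, had an intronic peak of 6.73-fold (3.44 to 12.2). Tef had the peak given above and Bhlhe40, a repressor gene, a promoter peak of 4.83-fold (2.11 to 10.2). Of 15 genes for early NK development and its signals 2 had a peak (13.3%, and 6.67% at promoters against 3.79% of all protein-coding genes), Runx3 and Il2rb, and Id2, Eomes, Tbx21, Ets1 and Tox had none. The lists overlap in their genes, were drawn up with earlier results of these data known, and hold few genes each, so a single gene moves a share by several percentage points.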

How the data were processed

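The data are from CUT&RUN of cultured NK cells from mouse spleen (1 library with the Aiolos antibody, 1 with no primary antibody). The submitters' processing notes name MACS2, Bowtie2 (given as version 1.3.0), Picard and SAMtools and the mm10 build, with no role or order; for the q cutoff, duplicate filter and control the entry is "not given in the sources used here". Per the file headers, the deposited peak list gives a signal value taken as MACS2's fold ratio, the -log10 of p and q and a score, which was not used. These are the authors' values, as are the gene assignments.

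Tags and background were solved from the fold, (tags + 1)/(background + 1), and the Poisson p of exceeding the tags, missing the -log10 p by no more than 1.75e-05 in all 1404 peaks, using Python 3.11.15, pandas 2.3.3 and SciPy 1.17.1. The solver was tested on simulated data. Distances are signed along the gene, a promoter peak has its centre within 1000 bp of the start, and all 1404 gene identifiers matched the RefSeq gene table (GRCm38.p6). No test was run, because the peaks chose the genes and there is 1 library per group. The members and lists were chosen with earlier results of these data known. Named genes are the 6 members, list genes with a peak (strongest peak) and neighbours; genes named as lacking a peak and the subfamilies were chosen after values were seen. Alternatives were stricter peak lists, other promoter windows and distances, another background, nearest genes and a shorter motif window.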

Additional observations from a re-analysis of the deposited data

How the results depend on the processing

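Stricter lists, of the 727 peaks whose -log10 q was not under the median or of the 687 above the median fold, left 4 of the 8 peaks in each case, at Atf4, Atf7, Nfe2l2 and Bach2, since such lists hold fewer peaks. The bZIP family then had 7 and 6 genes with a peak in place of 14; it had 9 with promoter peaks alone and 10 with peaks within 10000 bp of the start. With all genes of the gene table as background, which adds non-coding genes, the background share was 2.55%. The number of members with a promoter peak was 4 with windows of 500, 1000 and 3000 bp, from the summit, from the peak edge and by the authors' class. The median fold was 7.06 with the strongest peak per gene and 6.75 with promoter peaks alone. In the window from 100 bases before to 50 after the start, GGGAA was found in 2 of the 5 windows, against 38.4% of all. The nearest protein-coding gene was an alternative chosen after seeing the data. Depth limits single peaks: a fold from 5 tags has an interval from 2.21 to 10.7. No paired analysis was possible because each group is a single library.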
